A study of Mus musculus with 12 samples.

Results

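The 9 genes described here, Ucp1, Cidea, Elovl3, Ppargc1a, Prdm16, Dio2, Cpt1b, Ppara and Otop1, are genes of the thermogenic programme of brown and beige adipocytes. They were taken by name from the expression table of hyperplastic mouse mammary glands, where each name stands once, and make up 9 of its 54532 genes. Levels are FPKM (fragments relative to gene length and sequencing depth), so genes can be compared per length. Of the 9 genes, 6 reached 1 FPKM in at least 4 of the 12 libraries and entered the main test across genes, and Prdm16, Dio2 and Cpt1b did not.

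Brown and beige adipocytes burn fatty acids to make heat. Sympathetic noradrenaline acts on beta-adrenergic receptors, cyclic AMP rises, lipid droplets release fatty acids, and uncoupling protein 1 (UCP1) lets protons back into the mitochondrial matrix without making ATP. The mammary epithelium of the mouse lies in a fat pad made mostly of white adipocytes, in which beige adipocytes can appear.

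RNA was sequenced from mammary glands of female FVB/N mice of the MIC model, all given doxycycline at 2 mg/ml. The titles call the samples lesions and carry 2 wk. In this model doxycycline is generally described as switching on polyoma middle T and Cre recombinase together in mammary epithelium, so adipocytes are not the cells in which Cre is meant to act. There were 4 libraries of each of 3 genotypes. Controls, labelled MIC WT, are written here as WT 1 to 4, the knockout of Stat3 (MIC Stat3 ko) as Stat3 ko 1 to 4 and that of Chi3l1 (MIC Chi3l1 ko) as Chi3l1 ko 1 to 4, where numbers only name libraries. The labels give no alleles, age, batch or pairing, and do not say whether either knockout depends on Cre. They also leave unstated whether libraries of 1 group are different animals, and p-values measure only the spread between these samples, which may be technical. In RNA of mixed tissue, fewer cells of a type and less RNA per cell cannot be told apart.

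Libraries held 16217143 to 22607123 gene counts. The targeted genes followed their labels: Stat3 stood at 15.8 ± 3.04 FPKM in Stat3 ko against 48.0 ± 1.93 in WT (SD, n = 4), and Chil1, the mouse gene of Chi3l1, had 3 counts in all Chi3l1 ko libraries together. Mitochondrially encoded genes took at most 1.51% of counts in WT, 4.79%, 3.37%, 1.88% and 1.15% in Stat3 ko 1 to 4, and 1.03%, 2.22%, 1.21% and 1.61% in Chi3l1 ko 1 to 4. Mammary epithelial markers were present throughout, with 11 of 11 tested, but not evenly. They summed to 2398 to 2959 FPKM in WT, to 1129, 1145, 2292 and 2428 in Stat3 ko 1 to 4, and to 2214 to 2794 in Chi3l1 ko. White and general adipocyte markers summed to 427 to 1084 FPKM in WT, to 17794, 2884, 2118 and 1891 in Stat3 ko 1 to 4, and to 2761 in Chi3l1 ko 2 against 500.4 to 629 in the other Chi3l1 ko libraries. Stat3 ko 1 stood apart by its adipocyte level, and Stat3 ko 2, Stat3 ko 4 and Chi3l1 ko 2 by skeletal muscle markers, at 12817, 7258 and 10641 FPKM against 18.0 to 3438 in the rest.

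RefSeq promoters on GRCm38.p6 were found for 6 of the 9 genes: Ucp1, Ppargc1a, Prdm16, Dio2, Ppara and Otop1. The 250 bases before the start site were searched on both strands for the cyclic AMP response element TGACGTCA, its half-site TGACG, which lies within it, the STAT site TTCNNNGAA, the nuclear receptor half-site AGGTCA and the direct repeat of AGGTCA with 1 base between the copies. These letters were found in 1.55%, 17.8%, 7.02%, 14.0% and 0.0335% of all 32851 promoters of the same length. Of the 6 genes, 1 held the full element, 4 the half-site TGACG, 1 AGGTCA, and 0 held the STAT site or the direct repeat. The promoters of Ucp1, the defining gene of the programme, and of Dio2, a cyclic AMP-responsive gene that held the full element, are shown 5′ to 3′ with matches in capitals, at chr8:83290098-83290347 on the plus strand and chr12:90739039-90739288 on the minus strand.
Ucp1: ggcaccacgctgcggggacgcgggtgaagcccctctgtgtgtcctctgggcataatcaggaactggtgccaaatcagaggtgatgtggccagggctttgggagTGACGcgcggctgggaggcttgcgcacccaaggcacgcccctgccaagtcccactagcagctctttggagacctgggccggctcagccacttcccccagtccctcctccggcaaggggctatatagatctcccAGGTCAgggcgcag
Dio2: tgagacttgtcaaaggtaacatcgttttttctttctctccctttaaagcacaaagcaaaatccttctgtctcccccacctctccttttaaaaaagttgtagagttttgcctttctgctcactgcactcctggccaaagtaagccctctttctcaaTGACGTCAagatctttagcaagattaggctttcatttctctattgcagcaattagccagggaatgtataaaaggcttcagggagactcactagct
In Ucp1 the capitals mark TGACG, 147 bases before the start site, and AGGTCA, 14 bases before it. In Dio2 they mark TGACGTCA, 95 bases before the start site. A match of letters is a description and shows no binding.

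Ucp1 (ENSMUSG00000031710, GRCm38 chr8:83290352-83298452, plus strand) encodes the proton carrier that defines thermogenic fat. It stood at 0.103, 0, 0.193 and 2.30 FPKM in WT 1 to 4, from 3, 0, 6 and 72 counts, where 0 counts allow up to 3 in the library. In Stat3 ko 1 to 4 it stood at 176, 357, 74.3 and 0.194 FPKM, from 4811, 10563, 2551 and 6 counts. In Chi3l1 ko 1 to 4 it stood at 0.369, 97.7, 0.0306 and 0.274 FPKM, from 15, 3533, 1 and 8 counts. Ucp1 was thus abundant in 3 of 4 Stat3 ko libraries and in 1 of 4 Chi3l1 ko libraries, and near the detection limit in the other Stat3 ko library, which lay inside the WT range. The mean was 152 ± 155 FPKM in Stat3 ko (SD, n = 4), 24.6 ± 48.7 in Chi3l1 ko and 0.649 ± 1.10 in WT. The highest Stat3 ko library held 1841 times the level of the lowest.

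**Figure D1:**
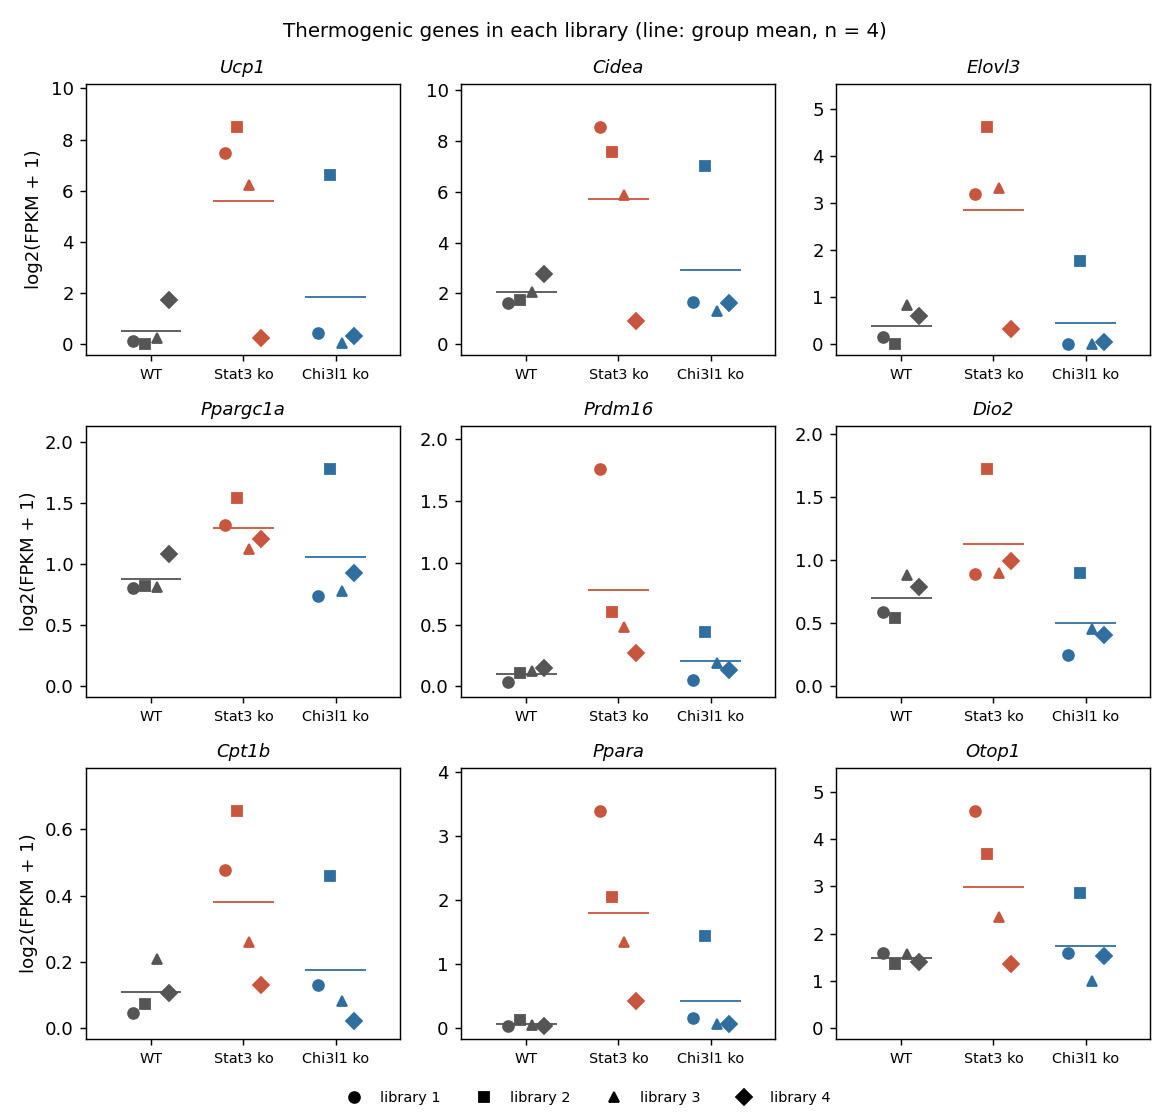
Level of each of the 9 genes, as log2(FPKM + 1), in every library, grouped by genotype, with lines at the group means of the plotted values (n = 4) and marker shapes that only name libraries within a group. Stat3 ko 1 to 3 and Chi3l1 ko 2 are the 4 highest libraries for 7 of the 9 genes, and Stat3 ko 4 is the lowest Stat3 ko library for the same 7.

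Cidea and Elovl3 belong to the lipid side of the programme. Cidea (ENSMUSG00000024526, GRCm38 chr18:67343564-67367794, plus strand) encodes a lipid droplet protein enriched in brown fat. It stood at 2.12, 2.38, 3.17 and 5.79 FPKM in WT, at 368, 185, 57.5 and 0.909 in Stat3 ko 1 to 4, and at 2.21, 127, 1.46 and 2.12 in Chi3l1 ko 1 to 4. The same 3 Stat3 ko libraries and Chi3l1 ko 2 were high, and Stat3 ko 4 was the lowest of all 12 libraries. The antisense gene B430212C06Rik overlaps the start of Cidea and stood at 2.24 FPKM at most, and the sources used here do not say whether counting used strand.

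Elovl3 (ENSMUSG00000038754, GRCm38 chr19:46131897-46135307, plus strand) encodes a fatty acid elongase induced by cold in brown fat. It stood at 0.112, 0, 0.776 and 0.525 FPKM in WT and at 8.15, 23.6, 9.05 and 0.248 in Stat3 ko 1 to 4. In Chi3l1 ko 1 to 4 it stood at 0, 2.42, 0 and 0.0375 FPKM. Elovl3 was highest in Stat3 ko 2 rather than in Stat3 ko 1, where Cidea was highest, and its level in Chi3l1 ko 2 was below that of Stat3 ko 1 to 3. Elovl3 is also expressed in sebaceous glands, and the list of sebaceous gland and skin markers summed to 5.94 to 74.1 FPKM in WT, 4.11 to 8.20 in Stat3 ko and 4.58 to 6.09 in Chi3l1 ko.

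Otop1 (ENSMUSG00000051596, GRCm38 chr5:38275972-38304217, plus strand) encodes otopetrin 1, a proton channel whose RNA is enriched in brown fat. It was the only one of the 9 genes at or above 1 FPKM in all 12 libraries. It stood at 2.00, 1.57, 1.99 and 1.64 FPKM in WT, 23.1, 11.9, 4.15 and 1.55 in Stat3 ko 1 to 4, and 2.03, 6.27, 1.01 and 1.90 in Chi3l1 ko 1 to 4. WT libraries differed by 1.27-fold between highest and lowest, and Stat3 ko 4 lay just under them.

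Among the regulators, Ppara (ENSMUSG00000022383, GRCm38 chr15:85734983-85802819, plus strand) encodes PPARα, the nuclear receptor for fatty acids that drives their oxidation. It stood at 0.0292, 0.0932, 0.0412 and 0.0272 FPKM in WT, from 2 to 8 counts each, and at 9.45, 3.13, 1.54 and 0.345 FPKM in Stat3 ko 1 to 4. In Chi3l1 ko 1 to 4 it stood at 0.115, 1.70, 0.0523 and 0.0438 FPKM. All 4 Stat3 ko libraries lay above all 4 WT libraries, Stat3 ko 4 with 25 counts being the lowest of them at 3.70 times the highest WT level.

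Ppargc1a (ENSMUSG00000029167, GRCm38 chr5:51454250-51567726, minus strand) encodes PGC-1α, the coactivator of mitochondrial biogenesis that cold induces in brown fat. It stood at 0.747, 0.773, 0.759 and 1.13 FPKM in WT, 1.5, 1.92, 1.18 and 1.31 in Stat3 ko 1 to 4, and 0.671, 2.44, 0.715 and 0.909 in Chi3l1 ko 1 to 4. Its highest library was Chi3l1 ko 2. The Stat3 ko and WT libraries did not overlap, but the lowest Stat3 ko level was 1.05 times the highest WT level.

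Prdm16 (ENSMUSG00000039410, GRCm38 chr4:154316125-154636873, minus strand) encodes a transcriptional coregulator that sets brown and beige adipocyte identity. It stood at 0.0240, 0.0815, 0.0904 and 0.107 FPKM in WT, 2.39, 0.523, 0.393 and 0.204 in Stat3 ko 1 to 4, and 0.0388, 0.359, 0.140 and 0.0962 in Chi3l1 ko 1 to 4. These rest on 4 to 19 counts in WT, 36 to 371 in Stat3 ko and 9 to 74 in Chi3l1 ko. All Stat3 ko libraries were above all WT libraries, and 1 library, Stat3 ko 1, reached 1 FPKM.

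Dio2 (ENSMUSG00000007682, GRCm38 chr12:90724552-90738438, minus strand) encodes the deiodinase that turns thyroxine into the active thyroid hormone inside brown adipocytes. It stood at 0.500, 0.454, 0.842 and 0.728 FPKM in WT, 0.856, 2.29, 0.868 and 0.992 in Stat3 ko 1 to 4, and 0.187, 0.863, 0.371 and 0.328 in Chi3l1 ko 1 to 4. Stat3 ko and WT libraries did not overlap, by a margin of 1.02-fold. Dio2 was the 1 gene of the 9 with a lower mean in Chi3l1 ko (0.437 ± 0.295 FPKM) than in WT (0.631 ± 0.185; SD, n = 4).

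Cpt1b (ENSMUSG00000078937, GRCm38 chr15:89416405-89425863, minus strand) encodes the muscle and brown fat form of the enzyme that admits fatty acids to mitochondria. It stood at 0.0332, 0.0530, 0.156 and 0.0775 FPKM in WT, 0.391, 0.575, 0.198 and 0.0942 in Stat3 ko 1 to 4, and 0.0954, 0.376, 0.0595 and 0.0166 in Chi3l1 ko 1 to 4. No library held more than 35 counts. Cpt1b lies wholly inside Gm44502, a gene on the same strand at chr15:89416405-89429696 that had 0 counts in every library, so reads that fit both genes may not have been assigned and the Cpt1b values are uncertain.

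Stat3 ko was compared with WT first. Every one of the 9 genes had a higher mean in Stat3 ko, from 1.74-fold for Ppargc1a and 1.99-fold for Dio2 to 45.4-fold for Cidea, 75.8-fold for Ppara and 234-fold for Ucp1, as ratios of mean FPKM. For Ucp1, Cidea, Elovl3, Otop1 and Cpt1b the lowest Stat3 ko library lay below the highest WT library. On the log2(FPKM + 1) scale the differences were 5.08 ± 1.81 for Ucp1 (SE, limma adjusted p = 0.0775), 3.66 ± 1.60 for Cidea (0.133), 2.47 ± 0.76 for Elovl3 (0.0515), 1.73 ± 0.53 for Ppara (0.0503), 1.52 ± 0.60 for Otop1 (0.104) and 0.42 ± 0.22 for Ppargc1a (0.194). None of these 6 passed an adjusted p of 0.05, where 14.0% of the 13643 tested genes did and 5.61% were called higher. At an unadjusted p under 0.05 the count was 5 of 6, all but Ppargc1a, beside 34.1% of tested genes. Elovl3 and Ppara reached 1 FPKM only in Stat3 ko 1 to 3 and Chi3l1 ko 2. These 2 genes thus passed the filter through the libraries where they were high.

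The 3 low genes were fitted without the filter. There Prdm16 differed by 0.67 ± 0.26 (limma adjusted p = 0.168), Dio2 by 0.43 ± 0.21 (0.256) and Cpt1b by 0.27 ± 0.12 (0.219), with 0 of the 9 genes called and 1.43% of 31268 genes called higher. In that scale a value near 0 is pulled together by the added 1, so Prdm16, 11.6-fold higher by its mean FPKM, shows a small difference. Over all 9 genes the median difference was 1.52, against −0.02 over all tested genes. Levels in Stat3 ko lay wholly above those in WT for 4 of the 9, Ppargc1a, Prdm16, Dio2 and Ppara, beside 6.60% of the 31268 genes with a value above 0.

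**Figure D2:**
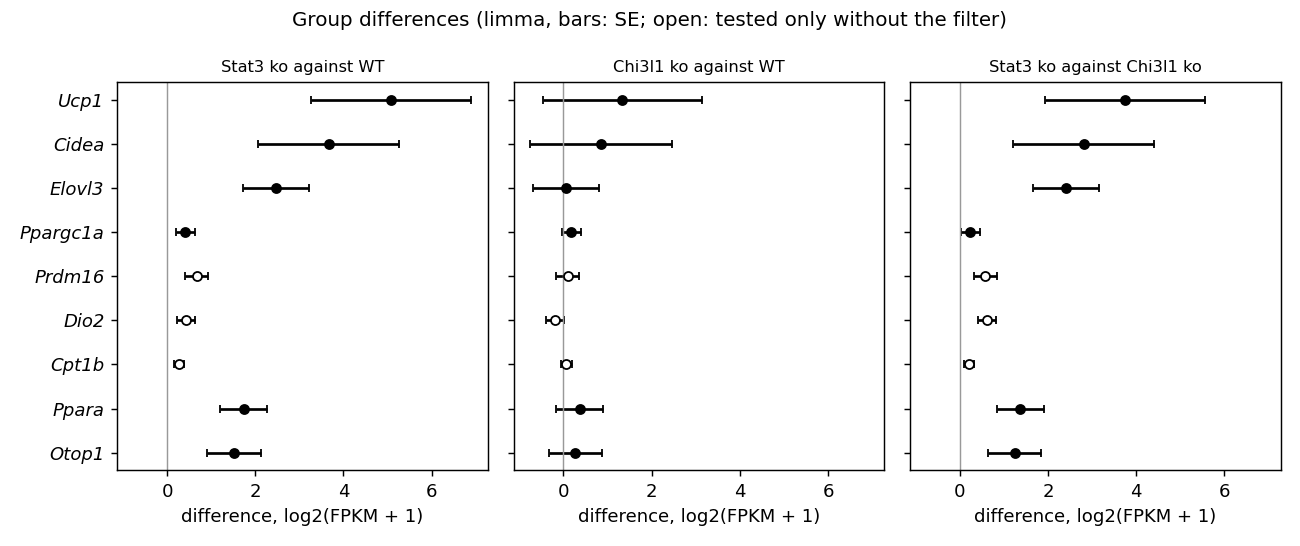
Difference between groups on the log2(FPKM + 1) scale for each of the 9 genes in the 3 comparisons, with limma's SE as bars (n = 4 libraries per group). Filled points are genes in the main test and open points the 3 genes fitted without the filter. All 9 points lie above 0 in Stat3 ko against WT, and 8 of 9 do in Chi3l1 ko against WT, where the bars of all 9 cross 0.

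The outcome of the test for Stat3 ko against WT turned on single libraries and on the tool. Without Stat3 ko 4, limma called 5 of the 6, with adjusted p = 0.0083 for Ucp1, 0.0146 for Cidea, 0.0019 for Elovl3, 0.0092 for Ppara and 0.0174 for Otop1, beside 10.8% of tested genes called higher. Without Chi3l1 ko 2, which enters only through the spread that the 3 groups share, it called Ucp1 (adjusted p = 0.0442), Elovl3 (0.0462) and Ppara (0.0431), beside 6.37%. Without the 3 libraries above 2% mitochondrial counts, Stat3 ko 1, Stat3 ko 2 and Chi3l1 ko 2, the differences were 2.72 for Ucp1 (limma adjusted p = 0.249), 1.35 for Cidea (0.514), 1.43 for Elovl3 (0.235), 0.82 for Ppara (0.0853), 0.38 for Otop1 (0.467) and 0.28 for Ppargc1a (0.272), all still above 0 but smaller. Of the Stat3 ko group, that fit keeps only Stat3 ko 3 and Stat3 ko 4. It drops the libraries highest in Ucp1 and Cidea, so smaller differences for these genes were fixed by the choice. The part of mitochondrial content in the differences was not tested. Weights per library gave calls for Elovl3 and Ppara (beside 6.16%), and an added value of 0.1 in place of 1 gave a call for Ppara (beside 6.24%). Among count models on whole counts recovered from the FPKM, edgeR called Ppara (adjusted p = 0.0210) and Otop1 (0.0423), beside 9.70% of tested genes called higher, and DESeq2 called all but Ppargc1a of the 6, beside 15.4%. With a count filter that kept all 9 genes, edgeR called Ppara (adjusted p = 0.0211), Prdm16 (0.0254) and Otop1 (0.0432), beside 18.0% of 16446 genes called in either direction. In the authors' deposited table for this comparison all 9 genes are listed with a positive log2 fold change, from 0.78 for Ppargc1a to 7.87 for Ucp1, and 8 have an adjusted p under 0.05, all but Dio2 (0.0781), beside 11.4% called higher of the 20254 genes that its adjusted p-values imply.

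Chi3l1 ko against WT, which shares its WT libraries with the first comparison, gave no call. The differences were 1.34 ± 1.81 for Ucp1, 0.85 ± 1.60 for Cidea, 0.06 ± 0.76 for Elovl3, 0.36 ± 0.53 for Ppara, 0.27 ± 0.60 for Otop1 and 0.17 ± 0.22 for Ppargc1a on the log2(FPKM + 1) scale (SE, limma), and the adjusted p was 0.9998 for each. Of the 6 tested genes 0 were called, beside 0.00733% of tested genes, and 0 had an unadjusted p under 0.05, beside 1.63%. edgeR called 0 of 6 (beside 0.00733%) or 0 of 9 with the count filter (beside 0.00608%), and DESeq2 called 0 of 6 (beside 0.0590%). The authors' deposited table for this comparison, in which 0.171% of 18150 implied genes have an adjusted p under 0.05, lists 0 of the 9 genes. No gene of the 9 was without overlap between the groups, beside 0.764% of genes.

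The higher means in Chi3l1 ko rested mainly on 1 library, though not wholly for Ppara and Prdm16. All 9 genes were highest of their group in Chi3l1 ko 2, which held 265 times the Ucp1 level of the next Chi3l1 ko library, 64.6 times for Elovl3, 57.6 times for Cidea, 14.7 times for Ppara and 2.33 to 3.94 times for the other 5. The Elovl3 ratio divides by a level near 0, as the Elovl3 median in Chi3l1 ko was 0.0188 FPKM. Without Chi3l1 ko 2, the differences from WT were −0.25 for Ucp1, −0.51 for Cidea, −0.38 for Elovl3, −0.10 for Otop1, −0.066 for Ppargc1a and 0.03 for Ppara. The mean of the other 3 Chi3l1 ko libraries was thus below the WT mean on this scale for 5 of these 6 genes, while single libraries overlapped with WT. For Ucp1 the WT mean rested mainly on WT 4, at 2.30 FPKM, which was kept. The Ucp1 median over all libraries of a group was 0.321 FPKM in Chi3l1 ko and 0.148 in WT. Prdm16, which was not in this fit, had a median of 0.118 FPKM in Chi3l1 ko and 0.0860 in WT.

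Between the knockouts, all 9 genes had the higher mean in Stat3 ko. The differences were 3.74 ± 1.81 for Ucp1 (SE, limma adjusted p = 0.180), 2.81 ± 1.60 for Cidea (0.251), 2.41 ± 0.76 for Elovl3 (0.0575), 1.37 ± 0.53 for Ppara (0.104), 1.25 ± 0.60 for Otop1 (0.180) and 0.24 ± 0.22 for Ppargc1a (0.470). None of the 6 was called, beside 5.19% of tested genes called higher, and Elovl3 and Ppara had an unadjusted p under 0.05, beside 31.7%. All of the 9 overlapped between the groups, where 5.17% of genes did not and were higher in Stat3 ko. edgeR called 0 of 6 (beside 7.25%) and 0 of 9 with the count filter (beside 7.80%), while DESeq2 called Ppara and Otop1 (beside 13.1%). Without Stat3 ko 4, limma called all but Ppargc1a of the 6 (beside 9.10%). Without Chi3l1 ko 2 it called Ucp1, Elovl3 and Ppargc1a (beside 6.37%), and with weights per library Elovl3 (beside 6.39%).

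By mean FPKM the order of the groups was Stat3 ko, Chi3l1 ko, WT for 8 of the 9 genes, and Stat3 ko, WT, Chi3l1 ko for Dio2. By median, which a single library moves less, Stat3 ko was again first for all 9, and WT stood above Chi3l1 ko for Cidea, Elovl3 and Dio2. Chi3l1 ko and WT, neighbours in either order, did not differ beyond their spread for any of the 6 tested genes.

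Most of the 9 genes were high in the same libraries. For 7 of them, all but Ppargc1a and Dio2, which had Stat3 ko 4 among their 4 highest, the 4 highest libraries were Stat3 ko 1, 2 and 3 and Chi3l1 ko 2, which was so for 559 of the 13643 tested genes. Of the 7, Elovl3 and Ppara passed the filter through these 4 libraries alone, and Prdm16 and Cpt1b did not pass it. Within those libraries the genes split: Cidea, Prdm16, Ppara and Otop1 were highest in Stat3 ko 1, and Ucp1, Elovl3, Dio2 and Cpt1b in Stat3 ko 2. Across the 12 libraries, which share depth differences and the group contrast, Pearson's r of log2(FPKM + 1) was 0.983 between Ucp1 and Cidea, 0.946 between Ucp1 and Elovl3, 0.975 between Ppara and Otop1, and 0.692, the lowest of the 15 pairs of tested genes, between Elovl3 and Ppargc1a.

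Among all tested genes outside the 9, those most like Ucp1 over the 12 libraries were Acot11 (r = 0.991), Clstn3 (0.969), Kcnk3 (0.967), Agpat2 (0.959), Sbk1 (0.955), Ppp1r3b (0.955), Letmd1 (0.950) and Gpd1 (0.947). Acot11, an acyl-CoA thioesterase also known as brown fat-inducible thioesterase, stood at 11.3, 12.7, 5.34 and 0.655 FPKM in Stat3 ko 1 to 4 and at 6.26 in Chi3l1 ko 2, against 0.571 to 0.889 in the other 7 libraries. The genes most like Cidea were Kcnk3, a potassium channel gene, Acot11 and Pank1, which encodes a kinase of coenzyme A synthesis (r = 0.979 to 0.986). Those most like Ppara were Paqr9, Ppp2r5a and Aspa (0.992 to 0.997), and those most like Otop1 were Mpc1, Pdhb and Acadm (0.982 to 0.988), which encode a mitochondrial pyruvate carrier, a subunit of pyruvate dehydrogenase and an acyl-CoA dehydrogenase. Elovl3 was most like Aspg, Iglj3p and Rapgef1 (0.970 to 0.975), and Ppargc1a most like Fam220a, Taco1 and Hoxa5 (0.916 to 0.945). Iglj3p rests on 19 counts in Stat3 ko, 2 in Chi3l1 ko and 0 in WT, so its r is uncertain.

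Adipocyte genes were higher in Stat3 ko as well. All 20 white and general adipocyte markers had positive differences from WT, with a median of 2.62 against −0.02 over all tested genes, and 18 of 20 did not overlap, beside 9.67% of tested genes. Of the 20, 9 rose and 0 fell with limma, 18 rose with edgeR and 13 with DESeq2. Beside these stand 5.61%, 9.70% and 15.4% of tested genes called higher. The limma count was 0 without WT 1, WT 3 or WT 4 and 17 without Stat3 ko 4, the latter beside 10.8% called higher. Pck1, an enzyme of glycerol synthesis, rose by 4.53 ± 1.11 (SE, adjusted p = 0.0248), Cfd, the adipocyte-secreted complement factor adipsin, by 2.60 ± 0.66 (0.0284) and the lipid droplet gene Plin4 by 2.95 ± 0.79 (0.0339). Pck1 lost its call when WT 1, WT 3, WT 4 or Stat3 ko 2 was left out, Cfd when WT 1, WT 3 or WT 4 was, and Plin4 when any WT library, Stat3 ko 2 or Chi3l1 ko 1 was. Plin1 rose by 3.28 ± 0.92 (0.0384) and Cidec, the white fat relative of Cidea, by 2.91 ± 0.84 (0.0422), both calls ending in 9 of the 12 fits with a library left out. Adipoq, the adiponectin gene, differed by 3.02 ± 0.94 (0.0537) and Pparg, the master regulator of adipocyte differentiation, by 2.20 ± 0.71 (0.0604).

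The 4 libraries highest in Adipoq, Stat3 ko 1, Chi3l1 ko 2, Stat3 ko 2 and Stat3 ko 3, were also the 4 highest for Ucp1, Cidea and Elovl3, in other orders. Adipoq stood at 6.52 to 33.5 FPKM in WT, at 1001, 94.6, 72.8 and 58.1 in Stat3 ko 1 to 4, and at 118 in Chi3l1 ko 2 against 12.3 to 16.8 in the other Chi3l1 ko libraries. Ucp1 per Adipoq, a ratio of FPKM, was 0.176, 3.78, 1.02 and 0.00334 in Stat3 ko 1 to 4, 0.828 in Chi3l1 ko 2, 0 to 0.106 in WT and 0.00249 to 0.0234 in the other Chi3l1 ko libraries. Stat3 ko 3 and Stat3 ko 4 were close in Adipoq, while Ucp1 was 383-fold, Cidea 63.2-fold and Elovl3 36.5-fold higher in Stat3 ko 3. Other adipocyte markers were less even in this pair. Fabp4 stood at 160 and 71.4 FPKM and Dgat2 at 62.9 and 21.9. In the other direction, Car3 stood at 320 and 415 FPKM and Agt at 5.89 and 16.3. For the same pair of libraries Ppara differed by 4.46-fold, Otop1 by 2.67-fold, Prdm16 by 1.92-fold and Ppargc1a by 0.900-fold. Prdm16 per Adipoq ran from 0.00238 to 0.00552 in Stat3 ko and from 0.00243 to 0.00588 in WT, so the ratios overlapped where the levels did not. Ppara per Adipoq ran from 0.00594 to 0.0331 in Stat3 ko and from 0.00126 to 0.00447 in WT, without overlap. Otop1 per Adipoq ran from 0.0231 to 0.125 in Stat3 ko and from 0.0469 to 0.307 in WT. The part of the adipocyte level in the differences of the 9 genes was not tested.

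**Figure D3:**
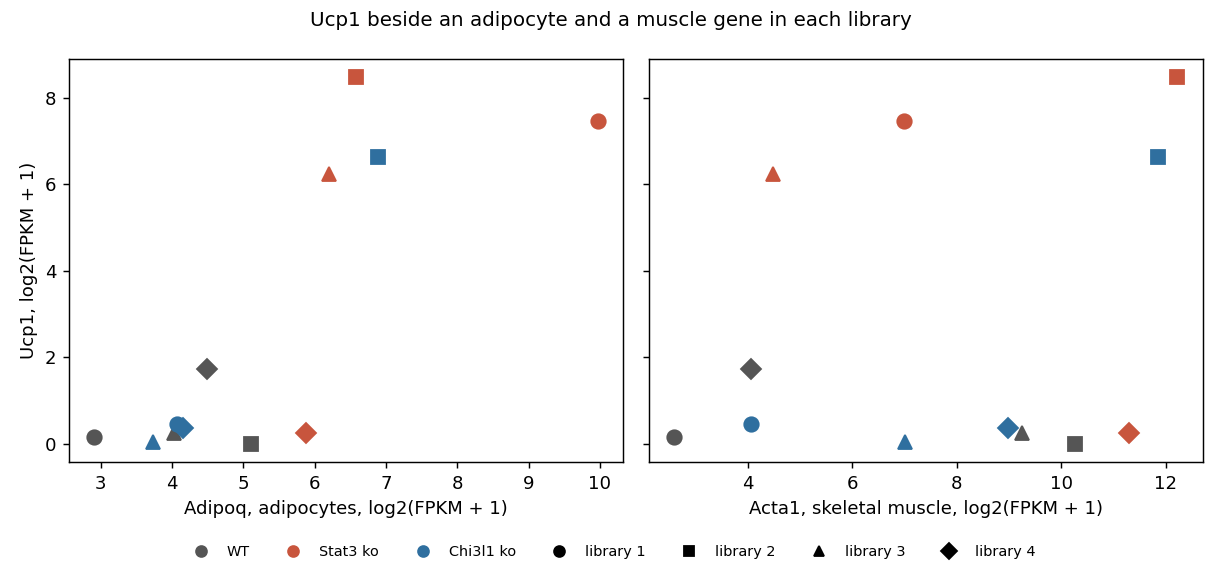
Ucp1 level of each library on the vertical axis against Adipoq, an adipocyte gene, on the left and Acta1, a skeletal muscle gene, on the right, all as log2(FPKM + 1), with colours for genotype and shapes that only name libraries. Stat3 ko 4 has Adipoq near that of Stat3 ko 3, 58.1 and 72.8 FPKM, with Ucp1 at 0.194 and 74.3 FPKM. Some other adipocyte markers were less close in these libraries.

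Of 28 other brown and beige fat genes, 20 were tested, 24 had positive differences between Stat3 ko and WT, and the median was 1.02. Limma called 0 of the 20, beside 5.61% of tested genes called higher. At limma's unadjusted p under 0.05, the list had 13 higher and 1 lower, beside 34.1% of tested genes in either direction. edgeR called 7 (beside 9.70%) and DESeq2 14 (beside 15.4%), all higher. Without Stat3 ko 4 limma called 10, beside 10.8% called higher. Cox8b and Cox7a1, cytochrome oxidase subunits of brown fat that skeletal muscle also uses, differed by 4.23 ± 1.44 (SE, adjusted p = 0.0691) and 3.06 ± 0.95 (0.0526). Cox8b stood at 494, 478, 104 and 94.4 FPKM in Stat3 ko 1 to 4, at 358 in Chi3l1 ko 2 and at 0.622 to 43.7 in the other 7 libraries. Cox7a1 stood at 112, 168, 25.1 and 45.5 FPKM in Stat3 ko 1 to 4, at 116 in Chi3l1 ko 2, at 22.6 in WT 2 and at 4.08 to 8.48 in the other 6 libraries. Unlike Ucp1 and Cidea, both were high in Stat3 ko 4, where muscle markers were high. Zic1, a marker of the classical brown lineage, was listed at 0 in 7 libraries and at 0.190 FPKM at most, and Ebf2, an adipocyte regulator, reached 5.03 FPKM in Stat3 ko 1 and 0.123 to 1.07 in the others. Of the 6 brown adipocyte markers against which the name of the programme was checked, Ucp1 and Cidea were thus high in Stat3 ko 1 to 3 and Chi3l1 ko 2 alone, Cox8b and Cox7a1 were high there and in Stat3 ko 4, Ebf2 was low and Zic1 near 0.

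Skeletal muscle markers were uneven between libraries of every group. Acta1, skeletal actin, stood at 5.03, 1224, 604 and 15.9 FPKM in WT, 127, 4759, 21.6 and 2509 in Stat3 ko 1 to 4, and 15.7, 3693, 127 and 505 in Chi3l1 ko 1 to 4, and Ckm, muscle creatine kinase, was high in the same libraries. Of the 17 tested muscle markers, limma, edgeR and DESeq2 each called 0 in Stat3 ko against WT, where limma called 14.0% of tested genes. With limma 0 had an unadjusted p under 0.05, beside 34.1% of tested genes, and the median difference was 1.91. Ucp1 was high in Stat3 ko 3, with Acta1 at 21.6 FPKM, and near 0 in Stat3 ko 4, with Acta1 at 2509. It was also high in Stat3 ko 2 and Chi3l1 ko 2, the libraries highest in Acta1, and in Stat3 ko 1, with Acta1 at 127 FPKM. The part of muscle RNA in the levels of the 9 genes was not tested. Muscle also expresses Ppargc1a and Cpt1b.

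Beta-adrenergic and cyclic AMP signalling genes, which carry the signal to brown fat, moved unequally. Of 15, 2 rose and 1 fell in Stat3 ko against WT, beside 14.0% of tested genes called in either direction, with a median of 0.43. The rises were 6 with edgeR, 8 with DESeq2 and 6 with limma without Stat3 ko 4. Beside these stand 9.70%, 15.4% and 10.8% of tested genes called higher. Adrb1, the beta-1 receptor, rose by 1.01 ± 0.15 (SE, limma adjusted p = 0.00227), a call kept in all 12 fits with a library left out. The adenylyl cyclase gene Adcy3 rose by 1.22 ± 0.37 (0.0492), a call that ended in 10 of those fits, and Crem, a cyclic AMP-responsive transcription factor, fell by 0.51 ± 0.11 (0.0139), which was not called without WT 1. Adrb3, the beta-3 receptor of adipocytes, differed by 2.71 ± 0.83 (0.0521).

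Fatty acid oxidation genes were higher together. All 22 had positive differences between Stat3 ko and WT, with a median of 1.12, and 21 of 22 did not overlap, beside 9.67% of tested genes. With limma 3 rose, with edgeR 16 and with DESeq2 21, beside 5.61%, 9.70% and 15.4% of tested genes called higher. The limma count of rises was 2 to 19 with a library left out, 19 without Stat3 ko 4 (beside 10.8%). Cpt1a, the liver form of carnitine palmitoyltransferase and paralogue of Cpt1b, rose by 0.99 ± 0.17 (SE, limma adjusted p = 0.00531), from 8.03 to 9.11 FPKM in WT to 14.3 to 25.9 in Stat3 ko. That call held in all 12 fits with a library left out. Slc25a20, the carnitine carrier, rose by 1.28 ± 0.39 (0.0496), a call that ended in 9 of them.

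Among 21 paralogues of the 9 genes, 12 were tested, 3 rose and 3 fell, beside 14.0% of tested genes called in either direction. The median was 0.04. The rises were 5 with edgeR (beside 9.70% called higher) and 7 with DESeq2 (beside 15.4%). With limma and a library left out they were 1 to 7, with 7 without Stat3 ko 4 (beside 10.8%). Besides Cpt1a and Cidec, Elovl5 rose by 0.42 ± 0.11 (SE, limma adjusted p = 0.0318). Elovl1 fell by 0.56 ± 0.13 (0.0206), Elovl7 fell by 0.91 ± 0.24 (0.0313) and Ppard fell by 0.38 ± 0.10 (0.0356). Elovl5 and Ppard are outside the rule for named genes and were chosen after their values were seen. Leaving out any WT library ended the calls of Elovl5 and Elovl7, leaving out Stat3 ko 2 those of Elovl1 and Elovl7, and leaving out WT 1 or WT 3 that of Elovl1, while Ppard lost its call in 8 of the 12 fits. Ucp2, the widely expressed relative of Ucp1, differed by −0.15 ± 0.16 (0.532) and Ucp3, its muscle and brown fat relative, by 2.26 ± 0.72 (0.0583). Ucp3 stood at 22.5, 14.1, 2.92 and 2.84 FPKM in Stat3 ko 1 to 4, so it was not near 0 in Stat3 ko 4 as Ucp1 was.

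Nuclear oxidative phosphorylation genes were all positive, 20 of 20 with a median of 0.62. Limma called 0 (beside 5.61% of tested genes called higher), with 11 at an unadjusted p under 0.05 (beside 34.1% in either direction). edgeR called 1 (beside 9.70%), DESeq2 called 10 (beside 15.4%) and limma without Stat3 ko 4 called 5 (beside 10.8%). Of the 8 tested genes of creatine and calcium cycling, which serve UCP1-independent heat, Slc6a8, the creatine transporter, fell by 0.65 ± 0.12 (SE, limma adjusted p = 0.00943). The median of that list was 0.06. Mammary epithelial markers had a median of −0.84, with 2 of 11 lower, Wap by −3.95 ± 0.33 (6.6e-05) and Elf5 by −1.77 ± 0.23 (0.00119). Over all tested genes 14.0% were called in either direction. Of the 2 tested sebaceous gland and skin markers, Scd3 fell by 0.70 ± 0.17 (0.0267), and leaving out any WT library or Stat3 ko 2 ended that call.

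**Figure D4:**
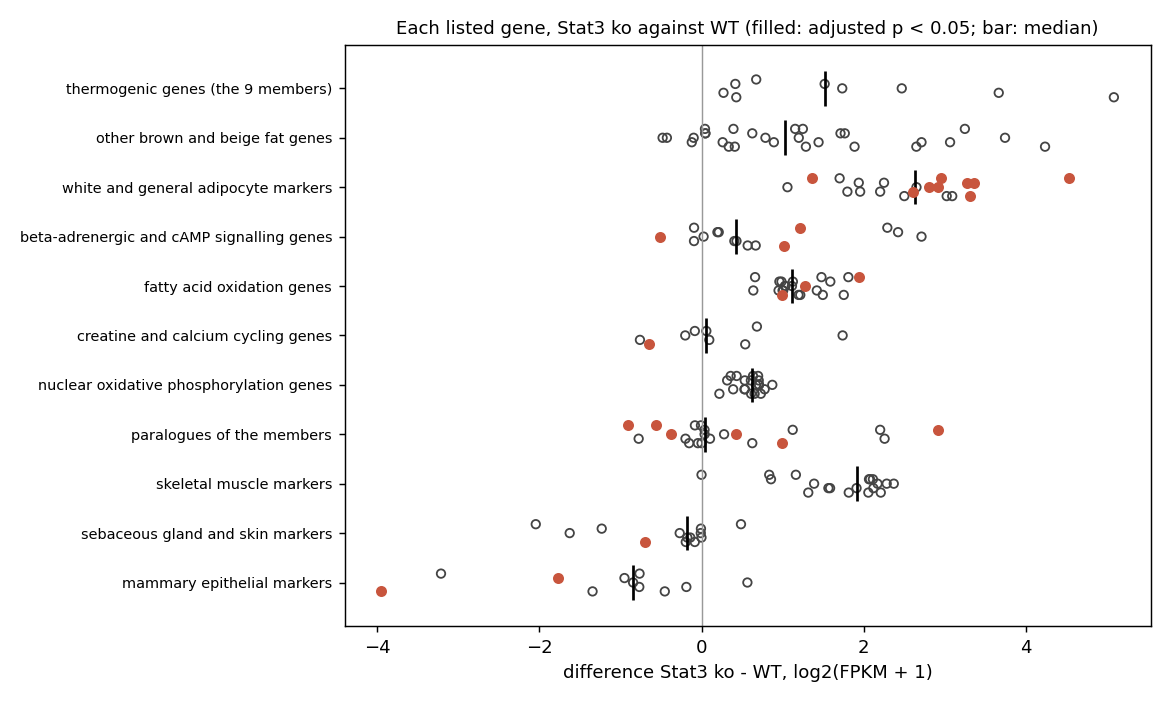
Difference between Stat3 ko and WT on the log2(FPKM + 1) scale for every gene of each list, with 1 point per gene, filled where limma's adjusted p is under 0.05, and a bar at the list median. The 9 thermogenic, 20 adipocyte and 22 fatty acid oxidation genes all lie to the right of 0, as do 24 of the 28 other brown fat genes. The epithelial list lies mostly to the left. The filled points include 9 adipocyte genes and 3 of fatty acid oxidation, beside 5.61% of tested genes called higher.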

How the data were processed

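RNA of mammary glands, called lesions in the titles, was sequenced in 12 libraries, 3 groups of 4, and groups were taken from the genotype labels. Per the submitters' processing notes the build was GRCm38 (mm10), and the tools listed, without role or version, were HTSeq, STAR, Trimmomatic, limma and edgeR. The authors deposited FPKM for 54532 genes with gene lengths and coordinates. The authors also deposited, for each knockout against WT, raw counts, a log2 fold change and p-values, and log2 fold changes printed from it are named as theirs. From FPKM, gene length and 1 total per library, 100.0% of values gave whole counts within 0.01 read, and 0 of 54472 deposited counts differed. Spreadsheet dates were turned back into 27 gene names.

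The 13643 genes that reached 1 FPKM in 4 or more of the 12 libraries were tested on log2(FPKM + 1), which understates changes of low genes. limma 3.58.1 with an intensity trend fitted 3 group means (R 4.3.3), two-sided, and a call needs an adjusted p (Benjamini-Hochberg, over all tested genes) under 0.05. It was run first on simulated counts with the same spread setting for every gene and no outlying library. That does not cover spreads between libraries like those of the 9 genes. The 9 genes, the lists and the tests were chosen with earlier results of these data known. Named genes are the 9, Stat3, Chil1, up to 3 called genes with the lowest adjusted p of each list, 12 genes chosen by name, genes overlapping the 9, and the genes of highest Pearson r (8 for Ucp1, 3 for others). Alternatives were quantile normalization, scaling by median of ratios, weights per library, an added value of 0.1, a filter at a mean of 5 FPKM or none, only the groups compared, edgeR 4.0.16 and DESeq2 1.42.0 on recovered counts, leaving out each library or the 3 with over 2% mitochondrial counts, and, added after the data were seen, edgeR with its own count filter. Tables were made in Python 3.11.15 with pandas 2.3.3 and numpy 2.4.6, and figures with matplotlib 3.10.9. A result for 1 gene that the rule names is not reported here.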

Additional observations from a re-analysis of the deposited data

Results flagged for a closer look

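In groups of 4, a library was marked where its gap to the nearest other library, divided by the range of the group on the log2(FPKM + 1) scale, was above Dixon's 95% critical value. Among the 27 combinations of gene and group 7 were marked, where chance marks about 1 in 20, and the 27 are not independent since 7 of the 9 genes share their 4 highest libraries. Chi3l1 ko 2 stood far above the other Chi3l1 ko libraries in Ucp1 (ratio 0.938, 97.7 FPKM), Cidea (0.933, 127 FPKM), Elovl3 (0.970, 2.42 FPKM) and Ppara (0.930, 1.70 FPKM). Its adipocyte markers summed to 2761 FPKM, its muscle markers to 10641 FPKM and its mitochondrial share was 2.22%, and their part in the result was not tested. WT 4 stood above the other WT libraries in Ucp1 (0.852, 2.30 FPKM from 72 counts) and in Ppargc1a (0.925, 1.13 FPKM). Stat3 ko 2 stood above the other Stat3 ko libraries in Dio2 (0.877, 2.29 FPKM). Stat3 ko 4, whose absence changed 5 calls, was not marked for any of the 9 genes.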

How the results depend on the processing

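For Stat3 ko against WT, 1911 genes were called, 1149 without the filter, 506 with only the groups compared, 3633 with DESeq2, 2955 with edgeR and its count filter, and 571 to 3252 with a library left out. Between the knockouts 1799 were called, 1119 without the filter, 505 with only the groups compared, 3261 with DESeq2 and 611 to 2890 with a library left out. For Chi3l1 ko against WT 1 was called, 2 with array weights and 8 with DESeq2. Of the thermogenic genes 0 were called in each comparison. For Stat3 ko against WT the count was 1 with an added value of 0.1, 2 with array weights, 2 with edgeR, 5 with DESeq2, 3 with edgeR and its count filter, and 0 to 5 with a library left out. Between the knockouts it was 1 with array weights, 2 with DESeq2 and 0 to 5 with a library left out. The highest counts were without Stat3 ko 4. Without the 3 libraries with over 2% mitochondrial counts it was 0 in each comparison, and Ucp1 differed by 2.72 between Stat3 ko and WT. These 3 are the libraries highest in Ucp1, and only Stat3 ko 3 and Stat3 ko 4 then remain of their group.

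Signs turned in Chi3l1 ko against WT. Without those 3 libraries, and without Chi3l1 ko 2 alone, the differences were −0.25 for Ucp1, −0.51 for Cidea, −0.38 for Elovl3, −0.066 for Ppargc1a and −0.10 for Otop1, since Chi3l1 ko 2 is left out of both. With any 1 library left out they ran from these values up to 1.95, 1.39, 0.21, 0.28 and 0.52. Elovl3 was also −0.44 with an added value of 0.1, −0.19 with array weights, −0.02 without WT 1 and −0.07 without WT 2, and the cause was not tested. Among calls for Stat3 ko against WT, 40.1% were higher, but 28.4% after quantile normalization, 29.9% with a mean of at least 5 FPKM, 29.2% with only the groups compared, 56.1% with edgeR and 57.6% with DESeq2. Quantile normalization moved the median of all genes to −0.11. No paired analysis was possible because the labels give the groups no shared replicate numbers. Prdm16, Cpt1b, Elovl3 and Ppara rest on few counts in WT, 56, 21, 40 and 15 in all, which limits their precision there.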
